A study of Mus musculus with 12 samples.

Results

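Serum amyloid A and other acute-phase genes were examined in mouse abdominal aorta: Saa1, Saa2, Saa3, Hp, Orm1, Orm2, Lcn2, Ptx3 and Cp. These 9 genes were picked by symbol, out of 55092 features measured, with their values in all 4 groups already known. Their own levels and differences are therefore given as a description, without p-values. RNA was sequenced from 12 male mice, 3 in each of 4 groups. CFS mice carried the floxed CCN2 gene (CCN2fl/fl) and received saline, and CFA mice were of the same genotype and received Ang II. CSS and CSA mice lacked CCN2 in smooth muscle cells (CCN2SMCΔ) and received saline and Ang II, respectively. The deletion was driven by Myh11-Cre-ERT2, a tamoxifen-inducible recombinase under a smooth muscle promoter, so CCN2 made by other cells of the wall was left in place. Mice of both genotypes were given 5 doses of tamoxifen at 8 weeks of age, 2 weeks were allowed to pass, and the floxed controls lacked the recombinase. Ang II was infused by mini-osmotic pump at 500 ng/kg/min and tissue was taken on day 7.

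The acute-phase response is the shift in plasma proteins that follows infection or injury, and it is best known from the liver, where IL-6 and IL-1 drive it through STAT3, C/EBP and NF-κB factors. Several of its genes are also expressed outside the liver. In the mouse, Saa3 is made mainly by macrophages, fat and epithelia, while Saa1 and Saa2 are the main circulating forms from the liver. Hp (haptoglobin, which binds free hemoglobin) and the Orm genes (orosomucoids, carriers of drugs and lipids in plasma) are expressed in liver and in fat. Lcn2 (lipocalin 2, which binds bacterial siderophores) and Ptx3 (a long pentraxin that recognizes microbes and binds C1q) are expressed by myeloid and stromal cells, and Cp (ceruloplasmin) is a copper-carrying ferroxidase.

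The measure is FPKM, the fragments of a gene per kilobase of exon, scaled for library size, as deposited. Recovered fragments ranged from 14558578 to 23107799 per library. Library CSA03 stood apart, with the fewest fragments, 18883 features above 0 against 21192 to 24761 in the others, and 1.48% of those features resting on a single fragment against 5.43% to 10.02%. Values without it are given below for Saa3, Ptx3, Socs3, Cebpb and Apoa2. Ccn2, the targeted gene, was at 255 to 399 FPKM in the CSA libraries and 564 to 1105 in the CFA libraries, while the saline groups overlapped (436 to 640 FPKM in CSS and 480.1 to 1108 in CFS). Myh11, which marks smooth muscle, was at 695 to 1187 FPKM in the 9 libraries of the other groups and at 35.4 to 46.5 in CSA. Each library carries a mouse number of its own in the labels.

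The promoters of Saa3, Saa1, Saa2, Lcn2 and Ptx3 are printed to show where the same short C/EBP motif lies in genes of very different expression. Each is the 250 bases upstream of the RefSeq start site in GRCm38.p6, read 5′ to 3′ on the strand of the gene, and capitals mark matches on either strand to TTGCNNAA and, in Saa3 alone of these 5 and nearer to its 5′ end, to the NF-κB form GGNNTTTCC, where N is any base.
Saa3, chr7:46715677-46715926, minus strand: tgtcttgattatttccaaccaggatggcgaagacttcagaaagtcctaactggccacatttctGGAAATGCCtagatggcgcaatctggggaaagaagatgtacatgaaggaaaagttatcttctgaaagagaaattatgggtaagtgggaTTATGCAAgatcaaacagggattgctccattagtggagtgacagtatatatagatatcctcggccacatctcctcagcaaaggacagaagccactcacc
Saa1, chr7:46742981-46743230, minus strand: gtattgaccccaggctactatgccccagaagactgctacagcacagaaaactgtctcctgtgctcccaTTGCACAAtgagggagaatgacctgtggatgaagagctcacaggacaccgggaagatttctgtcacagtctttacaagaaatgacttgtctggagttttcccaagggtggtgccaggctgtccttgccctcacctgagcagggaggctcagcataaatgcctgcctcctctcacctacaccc
Saa2, chr7:46751583-46751832, plus strand: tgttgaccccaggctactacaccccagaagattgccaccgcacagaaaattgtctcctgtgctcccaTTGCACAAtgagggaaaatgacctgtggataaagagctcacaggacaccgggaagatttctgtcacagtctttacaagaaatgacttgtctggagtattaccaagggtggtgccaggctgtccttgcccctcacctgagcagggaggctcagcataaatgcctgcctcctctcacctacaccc
Lcn2, chr2:32387740-32387989, minus strand: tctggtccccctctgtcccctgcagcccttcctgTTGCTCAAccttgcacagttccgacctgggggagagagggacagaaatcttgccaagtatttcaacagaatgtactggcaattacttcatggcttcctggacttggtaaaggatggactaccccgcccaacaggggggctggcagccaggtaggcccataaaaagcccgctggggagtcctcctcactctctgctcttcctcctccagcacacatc
Ptx3, chr3:66219637-66219886, plus strand: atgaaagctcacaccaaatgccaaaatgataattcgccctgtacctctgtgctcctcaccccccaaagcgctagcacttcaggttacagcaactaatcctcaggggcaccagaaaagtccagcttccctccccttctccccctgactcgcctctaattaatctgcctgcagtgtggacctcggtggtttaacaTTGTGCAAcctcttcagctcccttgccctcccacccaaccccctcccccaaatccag

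The first base of the motif lay 99 bases upstream of the start in Saa3, 182 in Saa1, 183 in Saa2, 216 in Lcn2 and 57 in Ptx3. In the set of RefSeq promoters used here, 7 of the 9 genes had an entry, while Hp and Orm1 had none. The motif was also present in Orm2, 120 bases upstream, and in Cp, 70 bases upstream of the second of its start sites only. It was present in 9.56% of 32851 mouse promoters of that length. Its letters were chosen after the promoters had been read, so its presence in these genes is a description. The NF-κB form GGNNTTTCC, which does not overlap these C/EBP matches and is found in 4.93% of all promoters, was matched in Saa3, 187 bases upstream, and in Cp, 146 bases upstream of that second start. A longer form of it, with a further G at its 5′ end, had been searched before and was matched in none of the 7 genes. TTCNNNGAA, a form of the STAT motif found in 7.02% of promoters, was also matched in none. The promoters of Saa1 and Saa2 were 95.58% identical to each other, against 56.03% between Saa1 and Saa3. The 4 Saa genes lie in 42.3 kb of chromosome 7 (46711998 to 46754313, GRCm38) in the order Saa3, Saa4, Saa1, Saa2. Expression within this cluster was unequal, as described next.

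Saa3 (ENSMUSG00000040026, chromosome 7, 46711998 to 46715700, minus strand) had the largest difference between groups among the 9 genes. It was at 162, 299 and 152 FPKM in the CSA mice. In the CFA mice it was at 0.476, 1.99 and 0.615 FPKM, in the CFS mice at 0.498, 0.0205 and 0.378, and in the CSS mice at 0.248, 0.124 and 0.282. Every CSA library thus lay far above the other 9, and mouse CFA72 was the highest of those 9. The means were 204 ± 82.3 FPKM in CSA and 1.03 ± 0.836 in CFA (SD, n = 3 each). On the log2(FPKM + 0.1) scale, which understates folds of low genes, the difference between CSA and CFA was 7.68 (SE 0.63). Between CFA and CFS it was 1.55 (SE 0.63), and between CSS and CFS it was -0.07 (SE 0.63). Both moved with single mice, and without CFS69 they were 0.83 and -0.79, while without CFS68 they were 1.99 and 0.37. In bulk tissue, more cells of a type that makes a transcript and more transcript per cell cannot be told apart, here or for any gene that follows.

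Saa1 and Saa2, in the same cluster as Saa3, were near the limit of detection in all groups. Saa1 (ENSMUSG00000074115, chromosome 7, 46740497 to 46742980) rested on 6, 4 and 0 fragments in the CSA mice, 3, 3 and 2 in the CFA mice, 0, 0 and 2 in the CFS mice and 0 in each CSS mouse. Saa2 (ENSMUSG00000057465, chromosome 7, 46751790 to 46754313) rested on 4, 12 and 0 fragments in CSA, on 2 in mouse CFA72 and on 0 in the remaining 8 libraries. A count of 0 allows up to 3 fragments, or 0.0547 to 0.0777 FPKM of Saa2 depending on the library, and these limits cover counting error only. The highest value of either gene was 0.225 FPKM, for Saa2 in mouse CSA02. Saa4, the constitutive member of the family, reached 0.563 FPKM in the same mouse. The coding sequences of Saa1 and Saa2 were identical at 348 of 366 aligned bases (95.08%), so fragments could be divided between them or dropped in counting, whereas Saa1 and Saa3 were 79.33% identical. Saa1 and Saa2 did not pass the filter on low values described below, so differences between groups were not tested. In a fit without that filter, the log2 difference between CSA and CSS was 0.65 (SE 0.29) for Saa1 and 0.84 (SE 0.34) for Saa2. Between CSA and CFA it was 0.06 (SE 0.29) and 0.69 (SE 0.34). With so few fragments these values depend on the pseudocount.

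**Figure D1:**
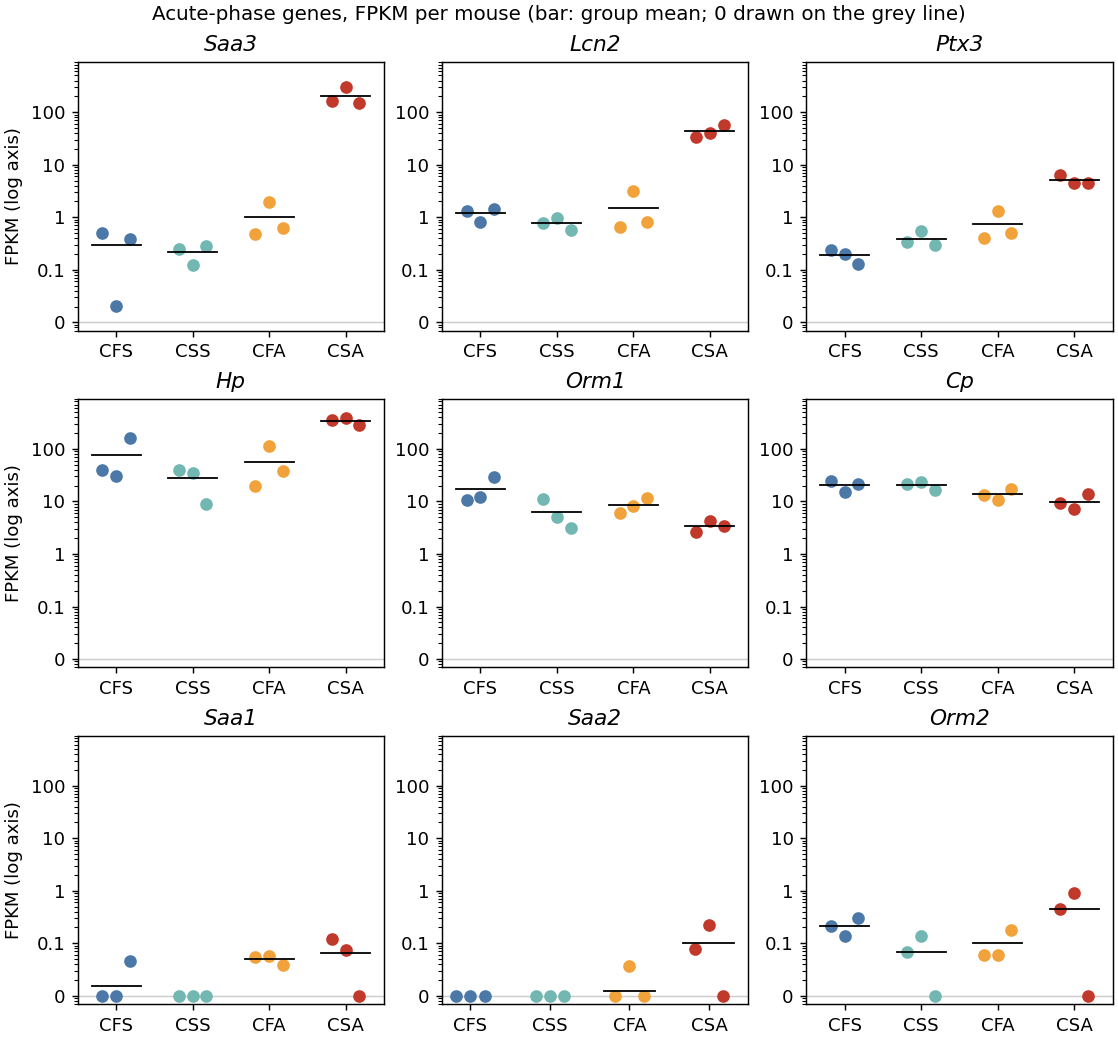
FPKM (log axis) of the 9 acute-phase genes in each of 12 mice by group, with group means as bars and values of 0 drawn on the grey line. The 3 CSA mice lie above the 9 others for Saa3, Lcn2, Ptx3 and Hp, from 152 to 299 FPKM for Saa3, and not for the remaining 5 genes.

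Lcn2 (ENSMUSG00000026822, chromosome 2, 32384633 to 32388252, minus strand) had the same order of group means as Saa3, in which the place of CFA above CFS rested on mouse CFA72. It was at 33.5, 40.5 and 57.6 FPKM in the CSA mice and at 0.665, 3.13 and 0.809 in the CFA mice. The saline mice were at 1.34, 0.815 and 1.44 FPKM in CFS and 0.780, 0.987 and 0.578 in CSS. The CSA libraries were all above the rest, and CFA72 again led the 9 others. The mean was 43.9 ± 12.4 FPKM in CSA and 1.53 ± 1.38 in CFA (SD, n = 3 each), a difference of 5.03 on the log2 scale (SE 0.48), or 5.68 without CFA72. Among the groups without CSA the intervals of the differences included 0, with 0.05 (95% interval -1.003 to 1.10) between CFA and CFS, which was -0.60 without CFA72 and 0.44 without CFA71, and -0.55 (-1.60 to 0.50) between CSS and CFS.

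Ptx3 (ENSMUSG00000027832, chromosome 3, 66219910 to 66225805, plus strand) was much less abundant. It was at 6.39, 4.43 and 4.50 FPKM in the CSA mice, 0.411, 1.3 and 0.510 in CFA, 0.341, 0.543 and 0.291 in CSS and 0.242, 0.199 and 0.130 in CFS. CSS and CFA each lay above CFS without overlap, as did 11.1% and 9.44% of all genes tested, and CSA lay above the rest. The mean was 5.11 ± 1.11 FPKM in CSA and 0.740 ± 0.487 in CFA (SD, n = 3 each). The log2 difference was 2.76 (SE 0.41) between CSA and CFA, 1.40 (SE 0.41) between CFA and CFS and 0.75 (SE 0.41) between CSS and CFS. These saline-group levels were under 1 FPKM, and with a pseudocount of 1 in place of 0.1 the CSA to CFA value was 1.83.

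Hp (ENSMUSG00000031722, chromosome 8, 109575128 to 109579172, minus strand) had the highest mean FPKM of the 9 genes in every group. It was at 354, 381 and 287 FPKM in the CSA mice and at 19.3, 111.6 and 38.7 in the CFA mice. In saline it was at 40.5, 30.3 and 158 FPKM in CFS and 39.5, 35.5 and 9.07 in CSS. The CSA libraries were the 3 highest, with CFS70 and CFA72 next. The mean was 341 ± 48.3 FPKM in CSA against 56.5 ± 48.7 in CFA (SD, n = 3 each), a log2 difference of 2.95 (SE 0.77), or 2.36 without CFA71 and 3.63 without CFA72. Between CSS and CFS the value was -1.31 (95% interval -2.997 to 0.39) and between CFA and CFS it was -0.41 (-2.10 to 1.29), and in both the libraries overlapped. Leaving out each mouse in turn gave -1.77 (without CFS69) to -0.58 (without CFS70) for the former and -1.08 (without CFA72) to 0.32 (without CFS70) for the latter.

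Orm1 (ENSMUSG00000039196, chromosome 4, 63344560 to 63348163, plus strand) differed in the other direction. It was at 2.61, 4.197 and 3.37 FPKM in the CSA mice, 5.92, 8.33 and 11.6 in CFA, 10.97, 5.08 and 3.14 in CSS and 10.5, 11.9 and 29.1 in CFS. CSA lay below CFA without overlap, as did 25.1% of all genes tested, but it overlapped with CSS. The mean was 3.39 ± 0.796 FPKM in CSA and 8.61 ± 2.83 in CFA (SD, n = 3 each), with a log2 difference of -1.29 (SE 0.48). The difference between CSS and CFS was -1.44 (SE 0.48), or -0.98 without CFS70, while CFA and CFS differed by -0.88 (SE 0.48), or -0.43 without CFS70.

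Orm2 (ENSMUSG00000061540, chromosome 4, 63362449 to 63365878), a close copy of Orm1, was at most 0.912 FPKM. Its fragments numbered 7, 15 and 0 in CSA, 1, 1 and 3 in CFA, 1, 2 and 0 in CSS and 3, 2 and 4 in CFS, and the groups overlapped. Orm3, which lies between the other two within 21.3 kb, was at 0.279 to 1.5 FPKM. The coding sequences of Orm1 and Orm2 were 89.86% identical and those of Orm2 and Orm3 88.35%, so that fragments could be divided between them in counting.

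Cp (ENSMUSG00000003617, chromosome 3, 19957054 to 20009145, plus strand) was lowest in CSA, by a small margin. It was at 9.23, 7.07 and 13.6 FPKM in the CSA mice, 13.4, 10.8 and 17.1 in CFA, 21.7, 23.2 and 16.6 in CSS and 24.0, 15.2 and 21.4 in CFS. CSA overlapped with CFA and lay below CSS without overlap, as did 29.1% of all genes tested. The log2 difference was -0.49 (95% interval -1.08 to 0.10) between CSA and CFA, -1.07 (-1.66 to -0.48) between CSA and CSS, and 0.03 (-0.56 to 0.62) between CSS and CFS.

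Of the 9 genes, 6 passed the filter of at least 1 FPKM in at least 3 libraries that preceded the fit, and Saa1, Saa2 and Orm2 did not. Saa3 and Ptx3 passed it only through the CSA libraries and CFA72, so their entry to the fit already selected for a difference. The rule for calling a gene was an adjusted p under 0.05 from limma with Benjamini-Hochberg adjustment and an absolute log2 fold change over 1.5. Between CSA and CFA, Saa3, Lcn2, Hp and Ptx3 were past it, all higher, which was the case for 8.95% of the 14676 genes tested. The 3 CSA libraries were above the 9 others for the same 4 genes, and 19.4% of the genes tested had that order. Orm1 and Cp were not past the rule in any comparison. Between CSA and CSS the same 4 genes were past it, as were 10.9% of genes in that direction, with log2 differences of 9.29 (SE 0.63) for Saa3, 5.63 (SE 0.48) for Lcn2, 3.85 (SE 0.77) for Hp, or 3.17 without CSS56, and 3.42 (SE 0.41) for Ptx3. None of the 6 was past it between CSS and CFS, where 0.0136% of genes were, or between CFA and CFS, where 0.0273% were. Since CSA is the group shared by both comparisons with calls, they are not independent of each other. The effect of the deletion under Ang II minus its effect under saline was 7.75 (SE 0.88) for Saa3, 5.58 (SE 0.67) for Lcn2, 4.26 (SE 1.08) for Hp, 2.01 (SE 0.57) for Ptx3, 0.15 (SE 0.68) for Orm1 and -0.52 (SE 0.38) for Cp on the log2 scale. Leaving out each mouse in turn gave 7.31 to 8.46 for Saa3 (highest without CFS69), 5.19 to 6.23 for Lcn2 (highest without CFA72) and 3.53 to 4.93 for Hp (lowest without CFS70, highest without CFA72). The values of Saa3, Lcn2, Hp and Ptx3 were past the same rule, as were 7.89% of all genes in that direction. Nothing is read from these shares, since the genes were chosen on the same contrasts. Without CSA03 the CSA to CFA difference was 7.86 for Saa3 and 2.84 for Ptx3.

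**Figure D2:**
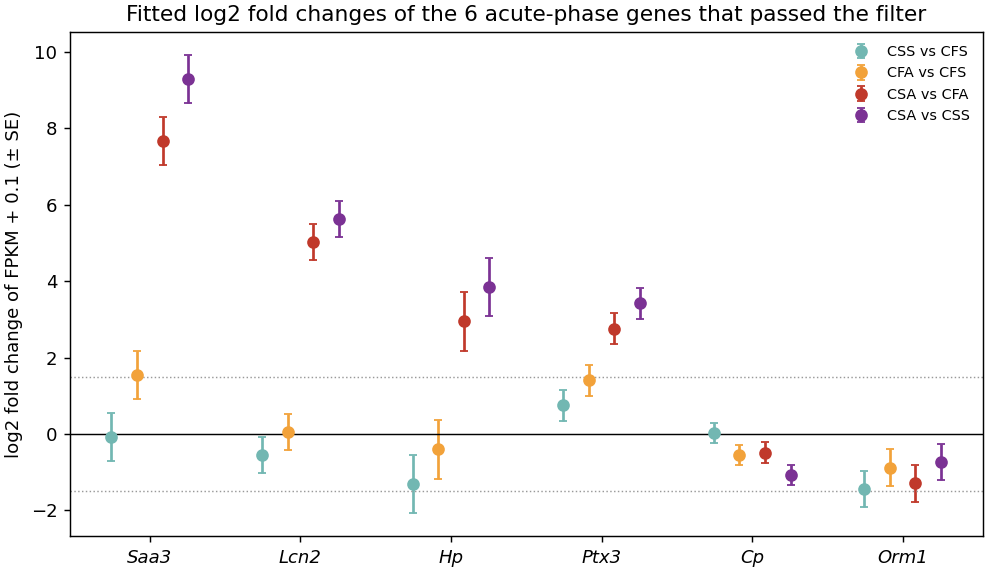
Fitted log2 fold changes (points) with their standard errors (bars) for the 6 acute-phase genes that passed the filter, in 4 comparisons, with dotted lines at ±1.5. The comparisons with CSA reach 7.68 and 9.29 for Saa3, while the points of Orm1 and Cp stay within the dotted lines throughout.

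The share of Saa3 and Lcn2 among the acute-phase transcripts was higher in CSA than in the other groups, as was the sum of all 9 genes. Summed over the 9 genes, the mean FPKM was 608 in CSA, 82.4 in CFA, 56.4 in CSS and 115.6 in CFS. Single mice carried the sums of 2 groups, with 211 in CFS70 against 77.3 and 58.6 in the other CFS mice, and 137 in CFA72 against 40.3 and 69.4 in the other CFA mice. Hp made up 52.4%, 51.7% and 75.0% of the sum in CFS. Its share was 47.9%, 81.3% and 55.7% in CFA, and 53.6%, 54.2% and 30.3% in CSS. The higher shares were thus those of CFS70 and CFA72, and the lowest was that of CSS56, in which Cp made up 55.4%. In the CSA mice Hp made up 62.3%, 51.7% and 55.4%, within the range of the other groups. Saa3 made up 28.5%, 40.5% and 29.3% of the sum in the CSA mice and at most 1.45% in any other mouse. Lcn2 made up 5.49% to 11.1% in CSA and at most 2.28% elsewhere. The ratio of Saa3 to Lcn2 was 4.84, 7.38 and 2.64 in the 3 CSA mice, and that of Saa3 to Hp was 0.458, 0.785 and 0.529. FPKM divide by the length of all annotated exons, 2606 bases for Saa3, 2623 for Lcn2, 1606 for Hp and 9566 for Cp. Transcripts in the tissue may be shorter, so shares and ratios between genes depend on these lengths. In CSA02, Saa3 had more fragments than Hp (16543 against 12995) at a lower FPKM. It had fewer in CSA01 (8571 against 11535) and CSA03 (6069 against 7073). The reservation on near-identical copies given above also holds.

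Among the 9 mice outside CSA, the extremes of Hp and Orm1 were also those of several fat genes. CFS70 was the highest of the 9 for Hp and Orm1, and also for Adipoq (adiponectin, 159 FPKM against a median of 40.4) and for the fat genes Plin1, Cidec, Cfd and Retn. CSS56 was the lowest for Hp, Orm1, Adipoq, Plin1, Cfd and Retn. Of the remaining adipocyte markers used below, Fabp4 and Ucp1 had the same extremes, and others did not. Lep was lowest in CSS56 but highest in CFS68, at 3.84 FPKM against 3.25 in CFS70. Plin4 was highest in CFS70 but at 100 FPKM in CSS56, and it was lowest in CFA71, at 53.4 FPKM. Cidec was also lowest in CFA71, at 14.4 FPKM against 14.6 in CSS56. The ratio of Orm1 to Adipoq was 0.170 to 0.295 in 11 libraries and 0.594 in CSA03. The ratio of Hp to Adipoq was 0.612 to 2.28 in the 9 libraries and 25.0, 16.9 and 50.7 in the CSA mice. Hp in CSA was thus high where Adipoq was low, while Orm1 stayed near the proportion to Adipoq seen elsewhere in 2 of the 3 CSA mice. CFA72, the highest of the 9 for Saa3, Lcn2 and Ptx3, was also the highest for Cd68, a macrophage marker, at 24.0 FPKM against a median of 8.37.

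**Figure D3:**
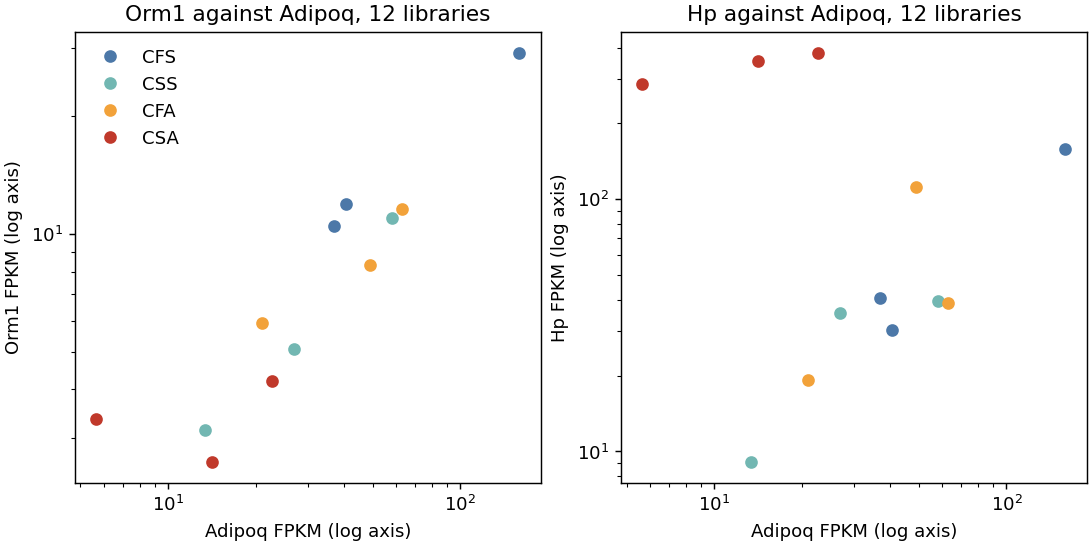
Orm1 (left) and Hp (right) against Adipoq in 12 libraries, FPKM on log axes, colored by group. Orm1 keeps a ratio to Adipoq of 0.170 to 0.295 in 11 libraries, while the 3 CSA libraries stand above the others for Hp, at ratios of 16.9 to 50.7.

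Markers of other cell types that the tissue could hold moved with the groups, and their part in the acute-phase levels was not tested. The summed FPKM of 12 neutrophil markers was 531 to 584 in CSA and 11.3 to 28.2 in CFA, and 10 were tested. Of these, 7 (among them Elane, Camp, Ltf, Ngp and Mmp8) passed the filter only with the CSA libraries counted, which selects for a difference, while the other 3 were higher in CSA by limma with Benjamini-Hochberg adjustment. S100a8 and S100a9 carried most of this sum, and Ly6g was at 0.680, 0 and 0 FPKM in CSA. The sum of 9 macrophage markers was 2127 to 2173 in CSA and 296 to 623 in CFA, with 7 higher of the 8 that passed the filter without the CSA libraries. The sum of 9 adipocyte markers was 168 to 361 in CSA, 402 to 1091 in CFA, 289 to 989 in CSS and 841 to 3127 in CFS, so that CSA overlapped with CSS, with 4 of 9 lower and none higher in CSA than in CFA. The sum of 6 smooth muscle markers was 785 to 931 in CSA and 5377 to 8214 in CFA, with all 6 lower. The 9 hepatocyte markers summed to 17.01 to 29.6 in CSA and 21.7 to 96.5 in CFA, and of the 5 tested none was past the rule as higher in CSA than in CFA and 2, Alb and Serpina1b, as lower. Cyp2e1 carried the largest part of this sum in every library, at 11.96, 24.2 and 17.7 FPKM in CSA and 10.4, 49.3 and 50.6 in CFA. Outside CSA it was highest in CFS70 and lowest in CFA71, as was the fat gene Cidec, while Alb was highest in CFA74. The sum thus follows Cyp2e1 more than Alb, the defining marker. In the CSA mice Ahsg was at 3.99, 3.82 and 5.47 FPKM and Alb at 0.315, 0.161 and 0.279. Markers of mesothelial cells, which line the cavity around the vessel, summed to at most 1.25 FPKM in any library and none passed the filter. Those of T cells summed to 13.5 to 19.5 in CSA and 0.629 to 1.54 in CFA, and those of B cells to 4.44 to 7.72 and 1.22 to 2.33. All 5 T cell and 2 B cell markers that were tested passed the filter only with the CSA libraries counted, so no test of them is given. Fibroblast markers summed to 3559 to 4248 in CSA and 2204 to 2428 in CFA, with 0 of 6 past the rule. Col1a1, at 2561 to 3262 FPKM in CSA, carried most of that sum. The markers went both ways between CSA and CFA without overlap, with log2 fold changes of 1.44 for Lum, 0.96 for Col1a1, -1.13 for Dpt and -1.17 for Pi16. Endothelial markers summed to 97.2 to 125.5 in CSA and 178 to 382 in CFA, with 2 of 5, Pecam1 and Vwf, lower. These markers went both ways as well. Kdr was at 8.69, 5.37 and 7.29 FPKM in CSA and 2.45, 3.67 and 5.36 in CFA, a log2 fold change of 0.92 that was not past the rule. Cdh5 and Tie1, at -0.36 and -0.83, were not past it either.

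The genes whose profiles over the 12 libraries were nearest to each acute-phase gene were ranked on log2(FPKM + 0.1), by the root mean square of the differences after centring each gene on its own mean. For Saa3 the nearest were Slfn4 (difference 0.586), Cxcl5 (0.696) and Ms4a4c (0.878). For Lcn2 they were Zbp1 (0.306), Tnfsf8 (0.350) and Gpr171 (0.365), and for Ptx3 they were Ptpn7 (0.215), Fgd2 (0.270) and Nlrp1b (0.293). For Hp they were Hcar2 (0.532), Csf2rb2 (0.535) and Dusp2 (0.587). For Orm1 they were Ankef1 (0.200), Lpl (0.278) and Chdh (0.286). For Cp they were Hoxd3os1 (0.184), Ldb2 (0.192) and Slc4a7 (0.198). Cxcl5, Tnfsf8, Gpr171, Ptpn7 and Nlrp1b had means under 1 FPKM in each group outside CSA. They passed the filter only with the CSA libraries counted, which selects for a profile high in CSA. Among the acute-phase genes themselves, Cp and Orm1 were nearest (0.812), then Lcn2 and Ptx3 (1.02), and Orm1 and Saa3 were farthest apart (4.54).

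Other proteins of the acute phase were taken as a list of 25 genes, of which 15 were tested. Between CSA and CFA, 7 rose and 2 fell (limma, adjusted p under 0.05 and log2 fold change over 1.5), with a median log2 fold change of 1.43 against -0.04 over all genes tested, of which 8.95% rose and 8.27% fell by the same rule. Il1rn, Mt2 and Cfb passed the filter only with the CSA libraries counted, which selects for a difference, and 4 of the other 12 rose. Il1rn, the antagonist of the IL-1 receptor, was at 19.2, 16.3 and 31.8 FPKM in the CSA mice and 0.0166, 1.17 and 0.179 in CFA, a log2 difference of 5.97 (SE 0.69), or 5.18 without CFA71 and 6.91 without CFA72. Serpina3g, a serine protease inhibitor of a multigene family whose fragments may be shared, was at 58.3, 73.1 and 57.9 FPKM in CSA and 1.20, 2.42 and 0.448 in CFA (log2 fold change 5.69, SE 0.50, adjusted p = 9.52e-06). Mt2, a metallothionein, was listed at 0 in the 6 CCN2fl/fl libraries and at 1.34, 2.24 and 6.66 FPKM in CSA, at least 14.3-fold higher than a floor of 3 fragments per CFA library. Mt2 overlaps a second annotated gene over 73.5% of its exonic sequence, which makes its counts uncertain. Cfb, complement factor B, was at 5.65, 5.34 and 0.716 FPKM in CSA and 0.829, 0.917 and 0.635 in CFA, so that CSA03 lay within the CFA range, and it shares exonic sequence with a second annotated gene. The others that rose were Cd14, Mt1 and Serpina3n, and the 2 that fell were Itih3 and Itih4, heavy chains of the inter-alpha-trypsin inhibitor. Crp and Apcs, the short pentraxins, were among the 10 genes that did not pass the filter. Of these, Fga, Fgb and Fgg had means of 0.0109, 0 and 0 FPKM in CSA and 0.557, 0.411 and 0.433 in CFA. Hpx, Crp and Mbl2 also had lower means in CSA than in CFA, while Saa4, Orm3 and Hamp had higher ones. None of these differences was tested.

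Negative acute-phase proteins, whose plasma level drops in the response, were represented by 8 genes, of which 5 were tested. Rbp4 (retinol-binding protein) fell from 170, 126 and 163 FPKM in the CFA mice to 10.2, 20.4 and 8.15 in CSA (log2 fold change -3.66, SE 0.27, adjusted p = 3.66e-06). Alb (albumin) was at 3.55, 4.61 and 31.2 FPKM in CFA and 0.315, 0.161 and 0.279 in CSA (log2 fold change -4.56, SE 1.19, adjusted p = 0.0103), and without CFA74 its log2 fold change was -3.59. The highest libraries for Alb were CFA74 and CFS70 (16.6 FPKM), as for Fga, Fgb and Fgg of the preceding list. Those genes also had lower means in CSA, so the lower Alb was not particular to the negative acute-phase genes. Apoa2 did not pass the test (log2 fold change -1.28, SE 1.37, adjusted p = 0.488), and the median of the 5 was -1.28. The log2 fold change of Apoa2 was -0.27 without CSA03 and -2.18 without CSA02. The remaining members, Trf at 0.34 and Ahsg at 0.19, did not pass the test either, and Ahsg was called higher in CSA than in CSS (log2 fold change 2.02, adjusted p = 0.00405). Rbp4, like Orm1, is also expressed in fat, whose summed markers were lower in CSA as given above, and their part in these values was not tested.

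Cytokines and receptors that induce acute-phase genes were taken as 20 genes, of which 15 were tested, 8 rose and 0 fell between CSA and CFA, where 8.95% of all genes rose and 8.27% fell, with a median log2 fold change of 1.64. Il6, Osm, Tnf and Lif passed the filter only with the CSA libraries counted, which selects for a difference, and 5 of the other 11 rose. Il1b was at 91.3, 59.6 and 78.7 FPKM in the CSA mice and 1.08, 5.44 and 0.470 in CFA (log2 fold change 5.60, SE 0.80, adjusted p = 0.000250). Il6 was at 17.5, 10.02 and 15.1 FPKM in CSA and 0.359, 1.13 and 0.0389 in CFA (log2 difference 5.03, SE 0.79). Osm, an IL-6 family cytokine, was at 8.28, 6.58 and 4.05 FPKM in CSA and 0.182, 0.519 and 0.104 in CFA (log2 difference 4.22, SE 0.57). As for Saa3, CFA72 was the highest of the CFA mice for each of these 3 cytokines. Without CFA72 the log2 values were 6.52 for Il1b and 5.79 for Il6, and without CFA74 they were 4.88 and 4.21. The receptor chains Il6st and Tlr4 did not pass the test, with log2 fold changes of 0.47 (adjusted p = 0.0751) and 0.27 (adjusted p = 0.294). Il22 was at 0 in every library, and Il17a, Il11, Il1a and Csf3 also did not pass the filter.

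The signalling and transcription factors of the response, 14 genes that were all tested, had a lower median log2 fold change of 0.64, with 2 called higher and 0 lower, against 8.95% and 8.27% of all genes. Socs3, a feedback inhibitor induced by STAT3, was at 81.0, 60.9 and 17.6 FPKM in the CSA mice and 4.76, 8.39 and 2.82 in CFA (log2 fold change 3.17, SE 0.53, adjusted p = 0.000714), and its log2 fold change was 3.83 without CSA03. Nfkbiz, a cofactor of NF-κB, was at 24.3, 18.7 and 25.8 FPKM in CSA and 7.09, 7.66 and 4.44 in CFA (log2 fold change 1.85, SE 0.27, adjusted p = 0.000253). Cebpb, which encodes a factor that binds the C/EBP motif, was at 138, 111 and 32.7 FPKM in CSA and 25.5, 43.5 and 33.1 in CFA, so that CSA03 lay within the CFA range. Its log2 fold change was 1.26 (SE 0.45, adjusted p = 0.0463), short of the fold limit, and without CSA03 it was 1.90 and past the rule. Cebpa and Cebpd did not pass the test (adjusted p = 0.777 and 0.851).

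Receptors and binding partners of the acute-phase proteins were taken as 20 genes, of which 18 were tested, 7 rose and 0 fell, against 8.95% and 8.27% of all genes, with a median log2 fold change of 0.82. Fpr1 and Fpr2 passed the filter only with the CSA libraries counted, which selects for a difference, and 5 of the other 16 rose. Fpr2, a receptor for serum amyloid A, was at 10.3, 13.5 and 18.9 FPKM in CSA and 0.390, 1.09 and 0.109 in CFA (log2 difference 4.81, SE 0.59), or 5.44 without CFA72 and 4.19 without CFA74. Fpr1, its relative, had a log2 difference of 3.85 (SE 0.62). Tlr2, which recognizes bacterial lipoproteins, had a log2 fold change of 2.76 (SE 0.19, adjusted p = 1.85e-06). Mmp9, which forms a complex with lipocalin 2, C1qa, a part of C1q, Hmox1, Slc11a1 and these 3 made up the 7 that rose. Cd163, the scavenger receptor for haptoglobin bound to hemoglobin, was not among them, with a log2 fold change of -1.10 (SE 0.41, adjusted p = 0.0535), nor was Slc22a17, a receptor proposed for lipocalin 2, at -0.58 (SE 0.44, adjusted p = 0.312). In the 5 lists, 0 genes were called between CSS and CFS or between CFA and CFS by limma. At an unadjusted p under 0.05 there were 4, 0, 1, 2 and 2 genes in the former, where 6.3% of all genes had such a p, and 3, 1, 1, 1 and 3 in the latter, where 9.42% had, in the order in which the lists are described.

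**Figure D4:**
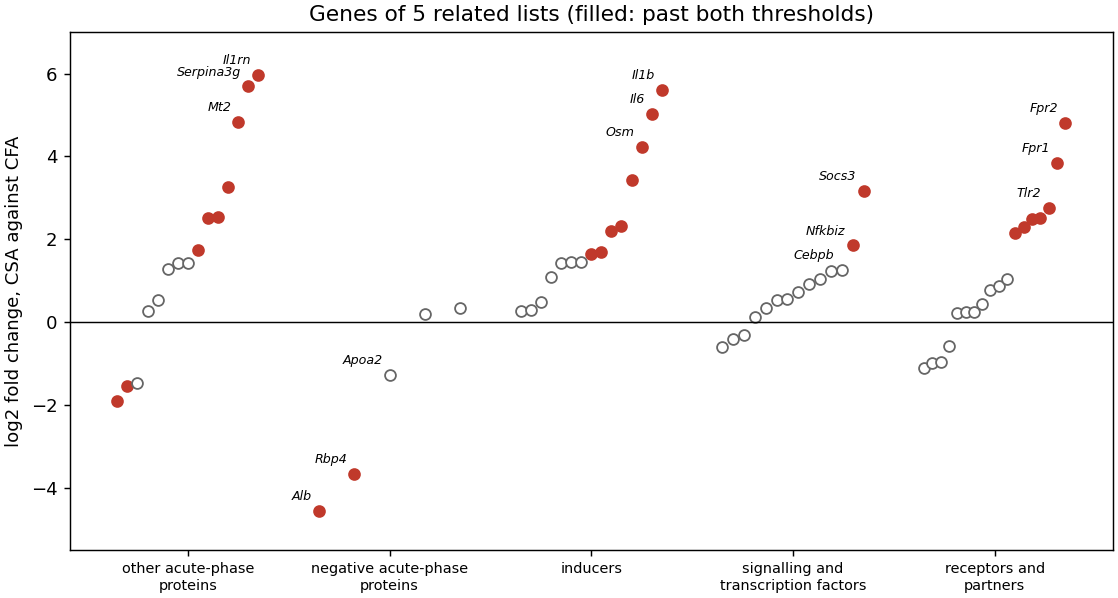
Log2 fold change between CSA and CFA of each tested gene in 5 related lists, filled where past both thresholds, with the 3 largest of each list named. The inducers reach 5.60 for Il1b and none of them is below 0, while the negative acute-phase proteins reach -4.56 for Alb.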

How the data were processed

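RNA was taken from abdominal aortas of 12 mice, poly(A)-selected and sequenced as 150 bp pairs. The authors deposited FPKM, with 1 value per gene and mouse and no pooling. The submitters' processing notes name HISAT2 2.0.5, StringTie 1.3.3b, featureCounts 1.5.0-p3 and mm10. The annotation release, strand setting and handling of multiple matches are not given in the sources used here. GENCODE M21 gave gene positions and exon lengths, with which 98.1% to 98.5% of values below 100 fragments were whole numbers of fragments to within 0.05. Depth is the sum of these fragments. The deposited values carry a scaling that makes the median log ratio equal in all libraries.

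log2(FPKM + 0.1) was fitted with limma 3.58.1 in R 4.3.3 (lmFit, eBayes with trend and robust), with 1 coefficient per group over 12 libraries, after a filter of at least 1 FPKM in at least 3 libraries (14676 genes). P-values were adjusted by Benjamini-Hochberg over all genes tested. The study's DEG-Seq needs counts, and its fold limit of 1.5 was kept. The fit was tested on simulated data. P-values set the difference between groups against the spread between mice within groups, pooled over all groups and moderated across genes.

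The 9 genes, the lists and the markers were chosen with earlier results of these data known. Named genes are the 9, Ccn2, Saa4 and Orm3, the 3 tested genes of each list with the largest change between CSA and CFA, the 3 nearest profiles of each gene, and markers. Further list genes were named after their values were seen. Sequence work used Python 3.11.15 and Biopython 1.88. Alternatives were a pseudocount of 1, other filters, other scalings, another eBayes setting, fits of only the groups compared, no fold limit and leaving out each mouse. A protein-coding restriction, leaving out CSA03 and CFA72 together and rescaling to fragment totals were added after seeing the data.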

Additional observations from a re-analysis of the deposited data

Results flagged for a closer look

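The effect of CCN2 deletion differed between Ang II and saline for 31 of the 67 tested genes of the related lists, 29 higher and 2 lower, by the interaction term of limma with Benjamini-Hochberg adjustment. Of all genes tested, 7.89% were called higher and 7.31% lower. The lists were chosen with these results known, and 9 of the 67 passed the filter only with the CSA libraries counted, which selects for a difference. Of these 9, Il1rn, Il6, Osm, Tnf, Mt2, Fpr1 and Fpr2 were called and Cfb and Lif were not. Of the 58 others, 22 were called higher and 2 lower. Values follow for the 13 of the 31 that were among the 3 most changed genes of their list between CSA and CFA. On the log2 scale, the difference of effects was 6.05 for Il1rn, 5.42 for Il1b, 5.27 for Serpina3g, 4.69 for Il6, 4.37 for Osm and 4.37 for Fpr2. It was 3.32 for Fpr1, 2.72 for Socs3, 2.45 for Tlr2, 1.97 for Cebpb and 1.55 for Nfkbiz. It was -3.48 for Rbp4. The value of 3.33 for Mt2 rests on groups listed at 0 and depends on the pseudocount. Among the 13, for the genes that passed the filter without the CSA libraries, adjusted p ranged from 0.000122 for Tlr2 to 0.0428 for Cebpb.

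All 3 CSA mice lay above the CFA mean and all 3 CSS mice below the CFS mean for Hp and Lcn2 on the log2 scale. For Hp the differences were 2.95 and -1.31, which are 4.26 apart, and for Lcn2 they were 5.03 and -0.55, which are 5.58 apart. For Hp the order of the CSS mice rests on CFS70, without which the value between CSS and CFS was -0.58 and 1 of the 3 CSS mice lay below the CFS mean. The gaps of 4.26 and 5.58 were past the call rule, but no p is given, because the genes were chosen with these values known and the fit is no independent test of them.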

How the results depend on the processing

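Alternatives moved the counts of called genes more than the values of the acute-phase genes, and none reversed the direction of a called value. Between CSA and CFA, 2528 genes were called, and 1095 with a mean of at least 5 FPKM, 1601 with a pseudocount of 1, 5978 with no fold limit and 1940 to 2612 without each mouse in turn. Between CSA and CSS, 2977 genes became 1272, 1918 and 6781 under the same settings and 2361 to 2962 without each mouse, and for the interaction 2231 became 1078 with a mean of at least 5 FPKM, 3877 with no fold limit and 1808 to 2323 without each mouse. Between CSS and CFS, 2 genes became 17 without CSA03 and CFA72, 4 with equal library sums, 1 with a mean of at least 5 FPKM, 5 with no filter, 20 with only the groups compared, 0 with protein-coding genes and 0 to 16 without each mouse (16 without CSA03). Between CFA and CFS, 4 genes became 1 with plain eBayes, 10 with equal sums, 0 with only the groups compared, 14 with protein-coding genes, 8 with fragment totals and 0 to 124 without each mouse (124 without CFA74). The 4 acute-phase genes past the rule between CSA and CFA became 3 with a mean of at least 5 FPKM, and stayed at 4 without each mouse in turn. They became 2 without CSA03 and CFA72, since Saa3 and Ptx3 then failed the filter. The 8 inducers that rose became 5 with a mean of at least 5 FPKM. Rescaling to fragment totals moved the median of all genes between CSA and CFA from -0.04 to 0.12. The cause of these shifts was not tested beyond the filter.

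Values without each mouse in turn, between CSA and CFA, were 7.32 to 8.24 for Saa3, 4.64 to 5.68 for Lcn2, 2.36 to 3.63 for Hp, 2.47 to 3.20 for Ptx3, -1.53 to -1.06 for Orm1 and -0.74 to -0.27 for Cp. Leaving out any CSA mouse removed Mt2, Osm, Tnf and Fpr1 from the genes tested. No paired analysis was possible because the groups share no mouse numbers. Depth limits Saa1, Saa2 and Orm2, which rest on at most 15 fragments per library.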
